A study of Cavia porcellus with 35 samples.

Results

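KRT80, CALB1, GLRA3, GPR52 and C9orf116 are 5 genes whose expression in the medial prefrontal cortex (mPFC) of juvenile guinea pigs was lower after antenatal synthetic glucocorticoid (sGC) in every generation and sex measured. They were picked out of the 10949 gene symbols listed in all 4 deposited tables because their level was lower in the sGC animals of each table, so the size of that difference is a description of how they were chosen and not a test of it. All 5 passed the filter on low counts in each table, as did 10725 genes in all.

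The founding mothers were dosed late in pregnancy, either with betamethasone, an sGC, given at 1 mg/kg in 3 courses, or with saline. The F1 animals were their offspring, and the F2 and F3 females descended from them through F1 and F2 males mated with females from outside the experiment, so that no mother of an F2 or F3 animal had been dosed. Each table held 1 generation and sex: F1, F2 and F3 females with 4 control (saline line) and 4 sGC animals each, and F1 males with 5 control and 6 sGC animals, all at postnatal day 40, with 1 library of unstranded mRNA reads per animal. Reads assigned to genes numbered 12819964 to 31763585 per animal, and levels are given below as CPM, with group means followed by the SD between animals. CPM is each count divided by the total of its library and scaled to a common size. For the 5 genes the totals were first adjusted by TMM, edgeR's scaling between libraries. For the CPM of the tissue markers in the next paragraph they were not. Animals were separate individuals, and the study's methods state that each litter gave at most 1 animal per sex for the female samples. The tables were counted separately and hold their own controls, so that sGC and control animals were compared only within a table.

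The labels of the samples name the prefrontal cortex as the source, whereas their extraction notes name punches of the hypothalamic paraventricular nucleus, so both were checked against marker genes. Of 8 cortical markers, 6 were listed in every table, and their summed level was 1376 to 5932 CPM per animal. Of 8 hypothalamic markers, OTP, TRH, FEZF1 and NKX2-1 were listed in no table, and the sum of those listed was 6.37 to 19.2 CPM. In F1 females 0 of the 6 cortical markers were called between sGC and control animals (edgeR's quasi-likelihood test), with 5 at an unadjusted p under 0.05 and a median log2 fold change of 1.96. SLC17A7, a marker of cortical excitatory neurons, was at 1000, 330, 178 and 246 CPM in the 4 controls and at 1274, 1201, 859 and 3478 CPM in the 4 sGC animals (log2 fold change 2.03, quasi-likelihood FDR = 0.0571). PPP1R1B, a striatal neuron gene, was called lower, at 1294, 252, 440 and 1210 CPM in the same controls and 87.0, 79.6, 170 and 281 CPM in the sGC animals (log2 fold change -2.30, quasi-likelihood FDR = 0.0339). In F3 females the cortical markers had a median of 0.53, again with 0 of 6 called and 5 at an unadjusted p under 0.05, and PPP1R1B was at -0.98 (quasi-likelihood FDR = 0.213).

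The 5 genes have unlike roles. CALB1 encodes calbindin, a cytoplasmic calcium buffer found in neurons of the upper cortical layers, in some interneurons and in striatal projection neurons. GLRA3 encodes a subunit of the glycine receptor, a chloride channel that inhibits the cell on which it sits, and GPR52 encodes an orphan receptor that raises cyclic AMP and is best known from striatal neurons. KRT80 is a keratin of epithelial intermediate filaments, and C9orf116, also named PIERCE1, encodes a protein inside the microtubules of motile cilia that was first described as a target of p53.

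CALB1, the calcium buffer, was read 247 to 2647 times per animal. In F1 females it was at 154, 39.6, 67.4 and 123 CPM in controls and at 32.4, 33.7, 25.2 and 36.4 CPM in sGC animals. Every sGC animal was below every control, although the controls differed among themselves by more than the sGC animals did. Control animals averaged 96.0 ± 52.1 CPM (SD, n = 4) against 31.9 ± 4.78 CPM after sGC (log2 fold change -1.59, SE 0.37). F2 females gave 27.8, 50.7, 49.6 and 46.8 CPM in controls and 16.0, 30.7, 17.9 and 19.99 CPM in sGC animals (log2 fold change -1.05, SE 0.22). In F3 females, control values were 24.9, 100.01, 97.5 and 55.9 CPM and sGC values were 18.9, 25.7, 22.2 and 20.5 CPM (log2 fold change -1.67, SE 0.37). In F2 and F3 females alike, control animal 1 lay within the range of the sGC animals and the other 3 lay above all of them. In F1 males the controls were at 21.7, 16.4, 57.6, 40.9 and 18.4 CPM, and the 6 sGC animals ranged from 9.13 to 21.5 CPM with a median of 16.7 CPM (log2 fold change -0.98, SE 0.32). Control males 3 and 4 were high and the other 3 lay in or near the sGC range.

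KRT80, the keratin, was read 39 to 953 times per animal. F1 female controls had 55.6, 9.48, 16.5 and 44.9 CPM and sGC animals 5.73, 5.51, 4.99 and 12.1 CPM. The means were 31.6 ± 22.2 and 7.08 ± 3.37 CPM (SD, n = 4; log2 fold change -2.16, SE 0.56), and the groups overlapped in 1 animal each, control 2 and sGC animal 4. In F2 females the controls were at 7.76, 16.2, 11.6 and 10.5 CPM and the sGC animals at 4.24, 4.61, 2.78 and 7.32 CPM, a log2 fold change of -1.29 (SE 0.28). For F3 females the corresponding values were 8.69, 25.5, 21.4 and 19.1 CPM and 6.09, 7.27, 2.70 and 3.22 CPM (log2 fold change -1.92, SE 0.37). The groups did not overlap in the F2 or the F3 table. Control males had 7.57, 4.36, 21.1, 13.1 and 7.98 CPM, and sGC males ranged from 2.18 to 8.61 CPM around a median of 3.02 CPM (log2 fold change -1.49, SE 0.41). Among the 6 sGC males, 5 were below the lowest control.

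GLRA3, the glycine receptor subunit, rested on few reads, 4 to 120 per animal. In F1 females it was at 6.01, 0.899, 1.80 and 3.22 CPM in controls and at 0.911, 0.965, 1.59 and 1.19 CPM in sGC animals (log2 fold change -1.37, SE 0.53). The lowest of these 8 animals was a control, animal 2. F2 female controls were at 1.28, 3.01, 5.17 and 2.51 CPM and sGC animals at 0.942, 2.23, 0.278 and 1.28 CPM (log2 fold change -1.35, SE 0.50). In F3 females, controls gave 1.73, 7.92, 5.12 and 6.48 CPM and sGC animals 1.70, 1.27, 0.623 and 1.24 CPM (log2 fold change -2.10, SE 0.45). These groups did not overlap, but control 1 was only just above the highest sGC animal. Male controls were at 0.819, 0.527, 4.24, 2.82 and 0.641 CPM and sGC males at 0.148 to 0.766 CPM with a median of 0.465 CPM (log2 fold change -1.88, SE 0.56). Control males 3 and 4 were high, and the fold change was the lowest of all 11524 genes tested in that table.

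GPR52, the orphan receptor, had 9 to 241 reads per animal. In F1 females, control values were 14.1, 3.67, 5.75 and 9.27 CPM and sGC values 2.21, 2.48, 4.71 and 3.92 CPM (log2 fold change -1.30, SE 0.42). F2 female values were 1.50, 3.30, 3.44 and 2.44 CPM in controls and 1.41, 1.69, 0.625 and 1.51 CPM in sGC animals (log2 fold change -1.02, SE 0.33). In F1 and F2 females alike, 3 controls lay above all sGC animals. In F3 females the controls were at 2.48, 12.2, 10.4 and 6.74 CPM and the sGC animals at 1.46, 2.23, 1.32 and 1.24 CPM, without overlap, and the log2 fold change of -2.31 (SE 0.46) was the lowest of all 11420 genes tested in that table. Male controls were at 1.13, 1.58, 4.77, 3.57 and 0.962 CPM and sGC males at 0.517 to 1.78 CPM around a median of 0.939 CPM (log2 fold change -1.16, SE 0.44).

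C9orf116, the ciliary protein gene, showed the smallest differences and the smallest spread. With 14 to 99 reads per animal, it was at 5.54, 2.84, 3.61 and 5.65 CPM in F1 female controls and at 1.95, 2.20, 0.969 and 2.10 CPM in sGC animals, without overlap (log2 fold change -1.29, SE 0.31). In F2 females it was at 2.49, 3.52, 4.23 and 3.51 CPM and at 1.53, 2.84, 1.60 and 1.81 CPM (log2 fold change -0.83, SE 0.24). F3 females had 4.09, 4.46, 2.93 and 5.28 CPM in controls and 2.81, 1.65, 1.80 and 1.83 CPM in sGC animals (log2 fold change -1.05, SE 0.23). The F3 groups did not overlap, whereas in F2 females sGC animal 2 lay above control 1. In F1 males the controls were at 2.46, 1.44, 3.50, 2.65 and 1.96 CPM and the sGC animals at 1.22 to 1.95 CPM with a median of 1.62 CPM (log2 fold change -0.57, SE 0.20).

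**Figure D1:**
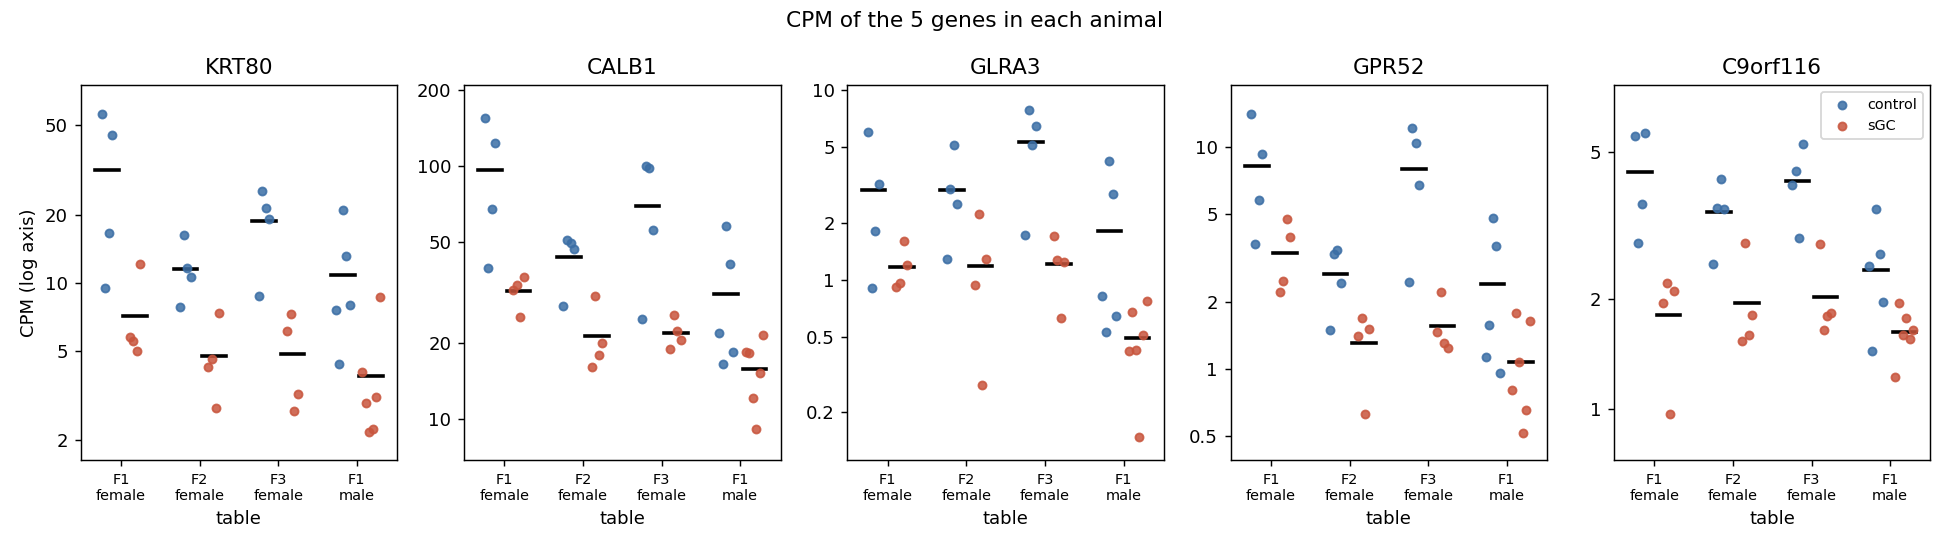
CPM of KRT80, CALB1, GLRA3, GPR52 and C9orf116 in each of the 35 animals, on log axes that differ between panels, with control animals in blue and sGC animals in red and the group mean as a black line. The control animals spread over a wider range than the sGC animals in most panels, and control males 3 and 4 lie above the other 9 males for each gene.

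With edgeR's quasi-likelihood test and an FDR threshold of 0.05, 3 of the 5 genes were lower in F1 females (KRT80, CALB1 and C9orf116), where 7.33% of all tested genes were called lower. The number was 0 in F2 females, where 0.126% of all genes were called lower. In that table all 5 genes had an unadjusted p under 0.05, and 4 passed with edgeR's likelihood ratio test and 2 with DESeq2, where the calls over all genes in both directions went from 31 to 534 and 471. In F3 females KRT80 and GPR52 were called, 2 genes against a background of 0.271%, and in F1 males KRT80 alone, 1 gene against 3.48%. Every sGC animal lay below every control for 2, 1, 4 and 0 of the genes in the F1, F2 and F3 females and the F1 males, where this held for 11.2%, 4.02%, 4.35% and 2.04% of all tested genes. Since the genes were chosen on this contrast, nothing is read from these shares. The median log2 fold change of the 5 genes was -1.37, -1.05, -1.92 and -1.16 in the 4 tables in the same order, and that of all tested genes was -0.03, 0.01, -0.01 and 0.00.

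Single animals decided several of these calls. Without F1 female control 4 or sGC animal 1, 0 of the 5 genes were called in that table. Without control 2 all 5 were. In F3 females the number was 0 without control 2, control 4 or any 1 of the 4 sGC animals. It was 1 without control 3 and 4 without control 1. In F1 males it was 0 without control 3, control 4 or any 1 of sGC animals 1 to 5. It was 4 without control 2. In F2 females it was 3 without sGC animal 2. The loss of most single animals thus removed the calls in F3 females and F1 males. All-gene counts follow for some of these fits only. The calls over all genes, in both directions, moved as well: from 1864 to 992 and 1227 in F1 females without controls 4 and 2, from 153 to 21 and 598 in F3 females without controls 2 and 1, from 31 to 487 in F2 females and from 1062 to 716 and 941 in F1 males without controls 3 and 2. In none of these fits did a fold change turn positive. The log2 fold change of GLRA3 in F1 females was -0.74 without control 1 and -1.66 without control 2, and that of CALB1 in F1 males was -0.63 without control 3.

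A level that was lower in all 4 tables was not rare in itself, as 1119 of the 10725 genes tested in every table, 10.4%, had a log2 fold change under 0 in each. Ordered by the smallest of the 4 differences, GLRA3 (-1.35), KRT80 (-1.29), GPR52 (-1.02) and CALB1 (-0.98) stood at ranks 2, 3, 4 and 5 among these genes, after PDYN, which encodes the precursor of the dynorphin opioid peptides (-1.40). C9orf116 stood at rank 10 with -0.57, next to CNTN5 (-0.57) and VSTM2L (-0.56), which are named only because they neighbour it in this order.

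Whether the difference was larger in one generation or sex than in another was tested for each gene as an interaction in the 6 pairs of tables. In edgeR's quasi-likelihood test 0 of the 30 interactions passed an FDR of 0.05, 0 had an unadjusted p under 0.05, and 0 passed with DESeq2. Among all genes, the share with an interaction was 31.7% between F1 males and F1 females, 13.8% between F2 and F1 females, 5.55% between F1 males and F3 females, 0.0981% between F3 and F1 females, 0.018% between F3 and F2 females and 0% between F1 males and F2 females. The genes were chosen for a lower level in every table, which left out reversals of direction beforehand. The 0 is therefore not read against these shares. The intervals were wide. The lowest unadjusted p belonged to GPR52, whose log2 fold change was lower in F3 than in F2 females by -1.28 (95% interval -2.60 to 0.03, quasi-likelihood FDR = 0.450). For C9orf116 the F1 male value was above the F1 female value by 0.72 (95% interval -0.06 to 1.50, quasi-likelihood FDR = 0.151), the lowest FDR of the 30.

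The 5 genes also varied together among animals of the same group, that is, of 1 table and 1 line (saline or sGC). The choice of the genes did not use this measure directly. For this, the log2 CPM of each animal was taken as a deviation from the mean of its own group, which removes the difference between sGC and control animals and between tables. Of the 17 control animals, 13 had all 5 genes on the same side of their group means, as had 4 of the 18 sGC animals. Among controls, F1 females 1 and 4, F2 females 2 and 3, F3 female 2 and F1 males 3 and 4 were above the mean for all 5 genes, and F1 females 2 and 3, F2 female 1, F3 female 1 and F1 males 2 and 5 were below it for all 5. Whether controls and sGC animals differed in this count was not tested, and no count for other genes is given beside it.

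**Figure D2:**
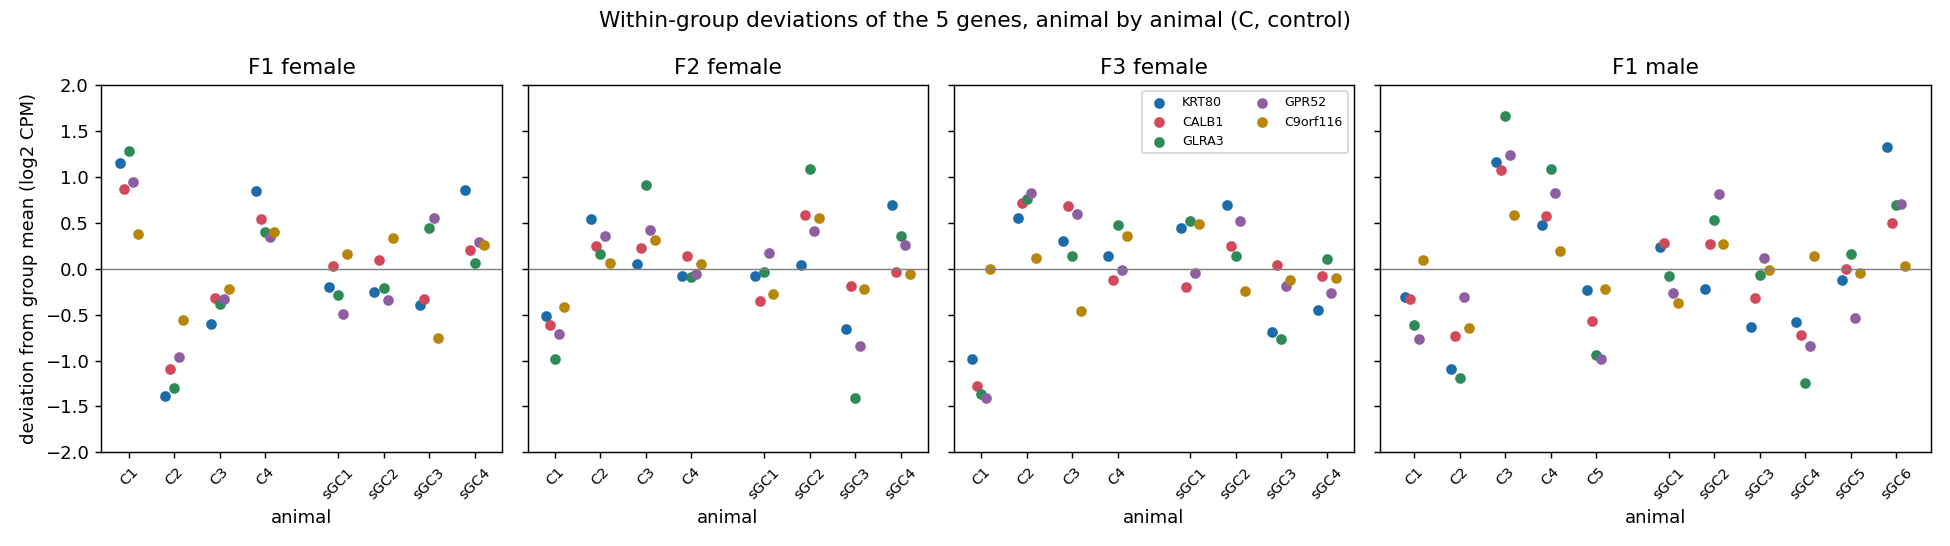
Deviation of each of the 5 genes from its group mean (log2 CPM, vertical axis) in every animal, with control (C) and sGC animals numbered as in the text along the horizontal axis and 1 colour per gene. The 5 colours lie on 1 side of 0 in 13 of 17 control and 4 of 18 sGC animals, at a mean deviation of 0.92 in F1 female control 1 and -1.06 in control 2.

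The closest pair was GLRA3 and GPR52, with r = 0.89 and rho = 0.88 over 35 animals (permutation p = 1e-05, the smallest that 100000 permutations within groups can give, and adjusted p = 2.5e-05). Without the 2 animals farthest from the median it was 0.86, and within the single tables it lay between 0.80 and 0.96. Over the 10 pairs of the 5 genes, r was 0.35 to 0.89 with a median of 0.76 and rho 0.36 to 0.88, and 9 pairs passed an adjusted permutation p of 0.05 for both. The exception was GPR52 and C9orf116 (r = 0.35, rho = 0.36, adjusted permutation p = 0.0831 for r). C9orf116 was the least tied to the others, at 0.35 to 0.57, and its r turned negative with CALB1 (-0.31) and GPR52 (-0.18) within the F3 females. Some genes outside the 5 followed them more closely. By r among 10724 genes, GPR52 stood at rank 2 for GLRA3, but KRT80 at 41 for GLRA3 and 42 for GPR52. C9orf116 stood at ranks 351, 436, 401 and 1546 for KRT80, CALB1, GLRA3 and GPR52. The share of all gene pairs that passed is not given here. Among the controls alone, r was 0.57 to 0.96, and among sGC animals -0.01 to 0.78. Pearson's r of the library totals with these deviations was between -0.09 and 0.13 for the 5 genes.

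The 5 genes varied more between animals of 1 group than most genes did. The SD within groups on the log2 scale was 0.84, 0.78, 1.06, 0.87 and 0.41 in controls for KRT80, CALB1, GLRA3, GPR52 and C9orf116, against a median of 0.13 over 10725 genes. In sGC animals it was 0.65, 0.36, 0.70, 0.56 and 0.36, against a median of 0.14. These medians cover genes of any abundance, and genes of like read number were not compared. How much of the spread came from low read numbers was not tested. In a bulk sample, a lower value from fewer cells that express a gene and one from less RNA per cell cannot be told apart.

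The genes that followed each of them most closely over the 35 animals were ranked by r. These likenesses are descriptions, out of 10724 genes compared, over which the median r was near 0.00 for each gene. CALB1 was most like PLPPR1 (r = 0.91), SOWAHA (0.90), DOC2B (0.87), PDYN (0.86) and SYTL5 (0.84). GLRA3 was most like CACNA1C, the pore of an L-type calcium channel (0.89), then GPR52 (0.89), SYNPR (0.87), RFX3 (0.85) and KL (0.84). GPR52 had GLRA3 first, then DCLK3 (0.86), SYTL5 (0.84), CALB1 (0.84) and RFX3 (0.83). For KRT80 the order was NECAB2, a neuronal calcium-binding protein (0.86), PDZD4 (0.84), CALB1 (0.81), PLPPR1 (0.81) and SLC10A4 (0.79). C9orf116 had a list of its own, with DAPK1 (0.81), MAPK15 (0.79), AK1 (0.74), CADM1 (0.74) and DPYSL4 (0.73).

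A punch of mPFC can hold more or less of the upper layers, the deep layers, the white matter and the striatum beneath it, and each of these has marker genes of its own. A score was therefore formed for each animal as the mean log2 CPM of 8 upper-layer, 10 deep-layer, 10 striatal or 11 myelin genes, none of them among the 5 genes, and each gene's slope on a score was fitted in all 35 animals with the 8 group means in the fit. Slopes are given as the change in log2 expression per SD of the score within groups. Because the group means are in the fit, these slopes do not directly use the contrast that chose the genes. The choice could still bear on them, because the scores themselves differed between sGC and control animals, as given below. Genes chosen for a lower level in sGC animals may therefore be ones that follow a score. The marker lists were also chosen with earlier results of these data known. The counts of passing slopes among the 5 genes are therefore not read against the shares of all genes.

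On the upper-layer score, all 5 slopes were positive and 4 passed an FDR of 0.05, where 6.08% of all 10948 genes tested had such a positive slope. GLRA3 rose by 0.74 per SD (95% interval 0.53 to 0.95, quasi-likelihood FDR = 6.62e-06), the third largest absolute slope of all genes. The slopes were 0.56 for GPR52 (FDR = 4.7e-05), 0.43 for KRT80 (FDR = 0.0118) and 0.38 for CALB1 (FDR = 0.00206), all from edgeR's quasi-likelihood test. C9orf116 had a slope of 0.18 (95% interval 0.05 to 0.31) that did not pass. Among the upper-layer genes, r with the 5 genes was 0.36 to 0.79 for CUX1, 0.48 to 0.79 for RASGRF2 and 0.52 to 0.67 for LHX2, and -0.14 to 0.28 for LAMP5 and -0.05 to 0.23 for UNC5D.

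On the myelin score, all 5 slopes were negative and passed, where 7.01% of all genes had such a negative slope. GLRA3 fell by 0.74 per SD (95% interval -0.95 to -0.54, quasi-likelihood FDR = 1.63e-06), GPR52 by 0.58 and KRT80 by 0.46. CALB1 had a slope of -0.40 and C9orf116 one of -0.21 (95% interval -0.34 to -0.08, quasi-likelihood FDR = 0.0184). The correlations with the myelin score were -0.78 to -0.47 for r and -0.79 to -0.52 for rho, and all 5 had an adjusted permutation p under 0.05 among 20 relations of gene and score. They were negative in each table, at -0.94 to -0.15 in F1 females, -0.87 to -0.53 in F2 females, -0.69 to -0.45 in F3 females and -0.88 to -0.47 in F1 males. Without the 2 animals farthest from the median score they were -0.75 to -0.38.

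The upper-layer and myelin scores opposed each other (r = -0.85 over the 35 animals), so that these slopes are not separate results. With all 4 scores in 1 fit, 0 of the 5 genes had a slope past the FDR of 0.05 on either by edgeR's quasi-likelihood test, and 1 gene on each had an unadjusted p under 0.05. In that fit 44 of all genes passed on the upper-layer score and 438 on the myelin score. The correlations with the upper-layer score were 0.37 to 0.72 for r and 0.43 to 0.76 for rho, with 4 of 5 passing, and 0.52 to 0.73 without the 2 farthest animals. Within tables they ranged from -0.10 to 0.88 in F1 females, 0.08 to 0.92 in F2 females, 0.31 to 0.73 in F3 females and 0.61 to 0.78 in F1 males.

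**Figure D3:**
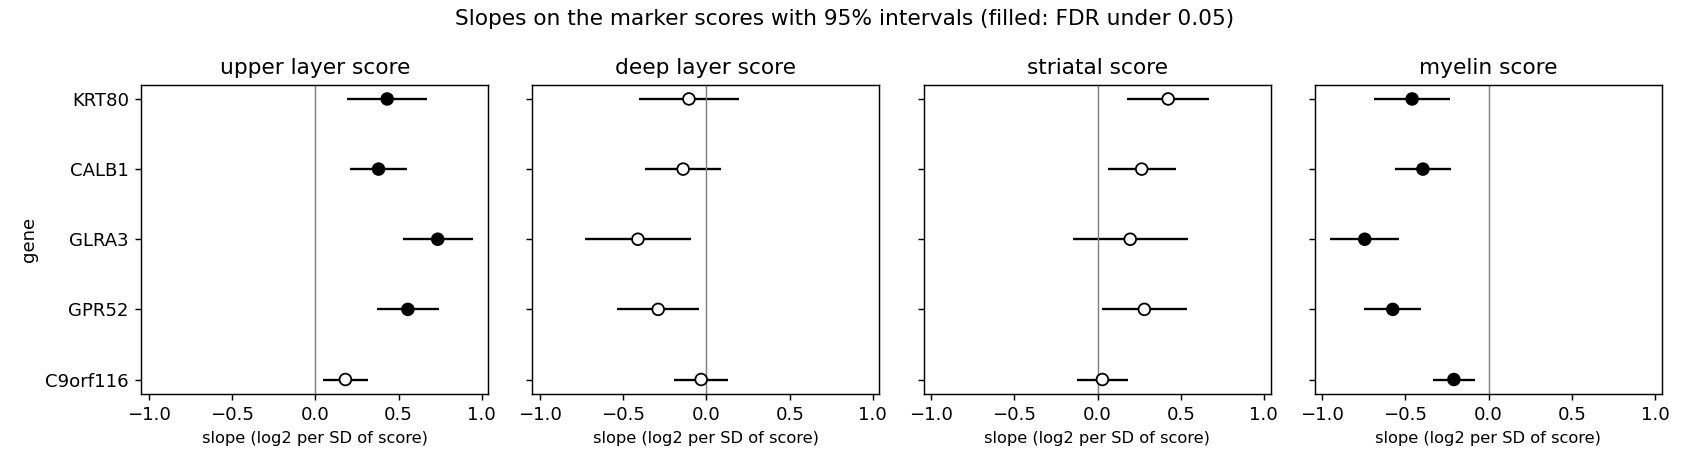
Slope of each of the 5 genes (log2 expression per SD of the score, horizontal axis) on the upper-layer, deep-layer, striatal and myelin scores, with 95% intervals, from fits of 35 animals with 8 group means, and filled where the quasi-likelihood FDR was under 0.05. The upper-layer slopes lie between 0.18 and 0.74 and the myelin slopes between -0.74 and -0.21, while 0 of the deep-layer and striatal slopes passed.

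The slopes on the deep-layer score were all negative, from -0.41 for GLRA3 to -0.03 for C9orf116, and 0 passed in edgeR's quasi-likelihood test, with 2 at an unadjusted p under 0.05, where 2.75% of all genes had a negative slope past the threshold. DESeq2 also gave 0. Those on the striatal score were all positive, from 0.03 for C9orf116 to 0.42 for KRT80 (95% interval 0.18 to 0.67, quasi-likelihood FDR = 0.113), and 0 passed with either tool, 3 having an unadjusted p under 0.05, where 0.712% of all genes had a positive slope past the threshold.

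The relation to the striatal score differed in sign between tables. In F1 females r was 0.70 to 0.98 for the 5 genes, in F2 females -0.68 to 0.02, in F3 females -0.58 to 0.70 and in F1 males -0.56 to -0.30. Pooled over the 35 animals it was 0.08 to 0.52, and KRT80 alone had an adjusted permutation p under 0.05 for r (0.52, adjusted p = 0.0241, rho = 0.39 with an adjusted p = 0.0880). This pooled value therefore did not hold within the F2 females, where KRT80 had r = 0.02, or in the F1 males, where it had r = -0.49. The mean striatal score on the log2 CPM scale was 7.09 ± 0.70 in F1 female controls (SD, n = 4), 6.19 ± 0.58 in F3 controls and 4.46 ± 0.23 and 4.41 ± 0.11 in F2 and F1 male controls. For the deep-layer score, r was -0.45 to 0.04 for the 5 genes and rho -0.54 to -0.20. GLRA3 (r = -0.44, adjusted permutation p = 0.00971) and GPR52 (r = -0.45, adjusted permutation p = 0.0178) passed. The permutation p-values for all 4 scores were adjusted over 20 relations, and no share of all genes passing is given. The slopes of GLRA3 and GPR52 on this score, adjusted over 10948 genes, did not pass (quasi-likelihood FDR = 0.110 and 0.155). Within tables, r for all 5 was -0.35 to 0.62 in F1 females and -0.83 to -0.19 in F2 females. It was -0.70 to -0.38 in F3 females and -0.74 to -0.47 in F1 males.

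On the upper-layer and myelin scores the slopes were larger in size in control than in sGC animals, but the difference did not pass a test. With a slope for each treatment in the fit, the upper-layer slope was 0.59 in controls and 0.10 in sGC animals for CALB1, 0.93 and 0.36 for GLRA3 and 0.62 and 0.09 for KRT80. The myelin slope of CALB1 was -0.56 and -0.08. The difference between the treatments was tested after these values had been seen, for 20 combinations of gene and score. With edgeR's quasi-likelihood test 0 passed an FDR of 0.05, 7 reached an unadjusted p under 0.05, and for each of the 4 scores 0% of all genes passed. The largest difference relative to its error was that of CALB1 on the upper-layer score, at -0.48 (95% interval -0.79 to -0.18, quasi-likelihood FDR = 0.917).

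The scores themselves differed between sGC and control animals, and not in the same way in each table. The myelin score of sGC animals was above that of controls by 0.94 in F2 females, 0.41 in F3 females and 0.94 in F1 males, and below it by -0.64 in F1 females. All 12 myelin genes tested in F1 males were called higher in sGC animals, and 0 of 11 or 12 were called in either direction in the F1, F2 and F3 females, where 5, 10 and 1 had an unadjusted p under 0.05. The upper-layer score differed by -0.06, -0.50, -0.17 and -0.18 in the F1, F2 and F3 females and the F1 males, where 2 of 9 genes (MDGA1 and CUX1) were called lower in F1 females and 0 in the F2 and F3 females and the F1 males, with 5, 4 and 3 at an unadjusted p under 0.05. For the striatal score the differences were -1.59, 0.21, -0.74 and 0.10, with 9 of 13 genes called lower in F1 females, 0 of 13 in F3 females and 0 of 12 in F1 males (8 and 1 at an unadjusted p under 0.05), and 1 of 10, DRD1, higher in F2 females. The deep-layer score was higher in sGC animals by 0.71, 0.58, 0.55 and 0.07, with 2 of 10 genes (ZFPM2 and CRYM) called higher in F1 females, 1 of 10 (CTGF) in F2 females and 0 in F3 females and F1 males, where 5 and 1 had an unadjusted p under 0.05.

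With a score as a further term, the fold changes of the 5 genes moved in a way that depended on the table. These are descriptions without a test. In F2 females the median log2 fold change of the 5 genes was -1.05 without a score, -0.25 with the upper-layer score and -0.20 with the myelin score, and GLRA3 and GPR52 were then above 0 (0.18 and 0.17, and 0.16 and 0.20). In F1 males it went from -1.15 to -0.57 with the upper-layer score and to -0.07 with the myelin score, with which CALB1 was at -0.01 and GPR52 at 0.20. In F1 females it went from -1.37 to -0.41 with the striatal score, GPR52 being at -0.06, but to -2.03 with the myelin score. In F3 females the median was -1.90 without a score and -1.42 to -1.12 with any 1 of them. Each fit used 1 slope for all tables, although the relation to the striatal score differed in sign between them. In F1 females the striatal scores of controls (6.32 to 7.75) and sGC animals (5.04 to 6.14) did not overlap. Nor did the myelin scores of F1 males (6.32 to 7.15 and 7.26 to 8.11). In these cases the adjusted values rest on scores that controls and sGC animals did not share.

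**Figure D4:**
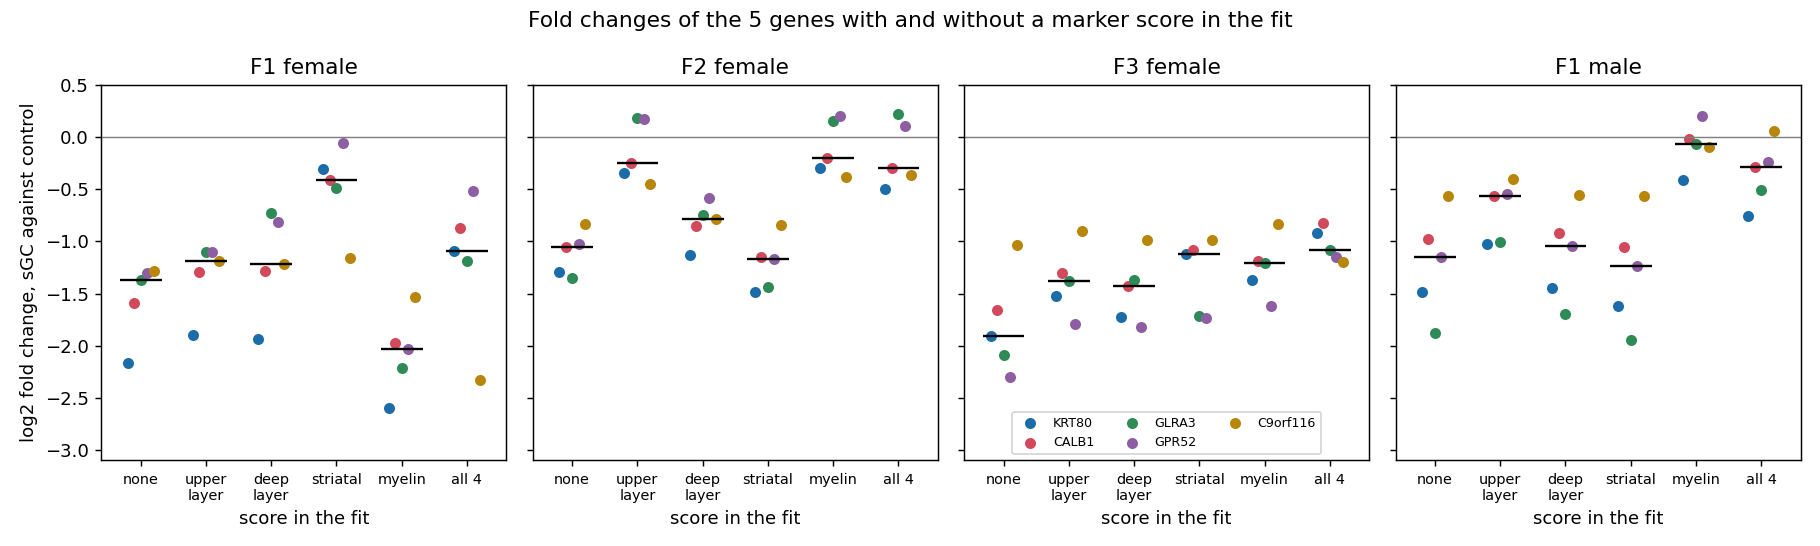
Log2 fold change of the 5 genes between sGC and control animals (vertical axis) in the joint fit of 35 animals without a marker score, with each of the 4 scores and with all 4, by table, with the median of the 5 genes as a black line. The median nears 0 with the myelin score in F1 males (-0.07) and F2 females (-0.20) and with the striatal score in F1 females (-0.41), and stays at or below -1.09 in F3 females.

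With all 4 scores in the fit, the medians were -1.09, -0.29, -1.09 and -0.29 in the F1, F2 and F3 females and the F1 males. KRT80 was at -1.09, -0.50, -0.92 and -0.76 and CALB1 at -0.87, -0.29, -0.82 and -0.29. In this fit all 5 genes were below 0 in both F1 and F3 females, 3 of 5 were in F2 females and 4 of 5 in F1 males. The score is a mean of few genes in the same libraries, and how well it stands for the make-up of a punch was not tested.

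The other genes of the pathways in which the 5 genes act were counted in the same fits, with the unadjusted numbers beside the counts of 0. Single genes of these lists whose r is given were picked after their values were seen, and do not stand for their list. Of all tested genes, 9.21%, 0.153%, 1.07% and 5.74% were called higher in sGC animals of the F1, F2 and F3 females and the F1 males. For the glycine receptor of GLRA3, 9 to 10 of 12 related genes were tested in a table. GLRB, its beta subunit, was called higher and SLC32A1 and GCSH lower in F1 females, SLC6A9, a glycine transporter, was higher in F1 males, and 0 were called in F2 or F3 females, where 3 and 2 had an unadjusted p under 0.05. The deviations of SLC6A9 ran against those of GPR52 (r = -0.70) and GLRA3 (r = -0.60). GLRA2 was at log2 fold changes of 0.16, 0.31, 0.42 and -0.25 in the F1, F2 and F3 females and the F1 males, none of which passed.

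Beside CALB1, 16 or 17 of 19 other calcium-binding protein genes were tested. NECAB2 was called lower in F1 females (log2 fold change -0.93, quasi-likelihood FDR = 0.0353) and in F1 males (-0.86, FDR = 0.0236), and had -0.25 and -0.82 in F2 and F3 females. VSNL1, NECAB3, NCALD and S100A10 were called higher in F1 females, and PVALB, NECAB3, VSNL1 and CABP1 in F3 females, so that the family did not move one way. PVALB, the calcium buffer of fast-spiking interneurons, was at 0.82, 0.58, 0.92 and 0.35 in the 4 tables. In F1 males S100B was higher and CALB2, NECAB1 and NECAB2 were lower, and in F2 females 0 of 17 were called, 4 having an unadjusted p under 0.05.

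For the cyclic AMP pathway around GPR52, 18 or 19 of 24 genes were tested. In F1 females ADCY2 and GNAS were called higher and ADCY5, GNAL, PPP1R1B, PDE1B and PDE10A lower, the last group being genes abundant in striatal neurons. ADCY2 and GNAS were higher again in F3 females, DRD1 was higher in F2 females, and PRKACB and PRKAR2B were lower in F1 males. GNAS, the G protein subunit through which such receptors raise cyclic AMP, ran against the deviations of GPR52 (r = -0.61), and PDE10A ran with them (r = 0.64).

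Relatives of KRT80 and C9orf116 gave little. Of 10 to 12 tested keratins, plakins and other filament genes, PPL was called higher and KRT14 lower in F1 females, PKP4 was higher in F1 males, and 0 were called in F2 and F3 females (0 and 2 at an unadjusted p under 0.05). Of 13 to 17 tested genes for other proteins of the ciliary axoneme, 0 were called in any table in edgeR's quasi-likelihood test, and 1 to 4 had an unadjusted p under 0.05, and their median log2 fold change was -0.31 to 0.10. EFCAB6, a gene of that list, ran against C9orf116 with r = -0.60. Of 13 p53 target genes, ZMAT3 was higher and SESN2, TP53INP1 and SESN1 lower in F1 females, CDKN1A and PHLDA3 were higher in F1 males, and 0 were called in F2 and F3 females (1 and 3 at an unadjusted p under 0.05). PHLDA3 ran against all 5 genes, with r from -0.79 for GLRA3 to -0.52 for C9orf116.

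Markers of other cells that a punch could hold were looked at in the same way. Of 10 to 12 tested interneuron genes, 4 were called lower in F1 females (DLX5, GAD2, SLC32A1 and NPY), 3 lower in F1 males (CALB2, GAD1 and SST), 1 higher in F3 females (PVALB) and 0 in F2 females (5 at an unadjusted p under 0.05). GAD2 followed CALB1 (r = 0.79), GLRA3 (0.75) and GPR52 (0.73), whereas the median r over the interneuron list was 0.18 to 0.52 for the 5 genes. Of 7 astrocyte genes, 3 were lower in F1 females and 1 higher in F1 males, of 5 or 6 microglial genes 4 were lower in F1 females, and of 7 endothelial genes 1 was lower there. In the ependymal and choroid plexus list 1 gene was lower in F1 females and 1 higher in F1 males. TTR, the main transcript of the choroid plexus, was not listed in any table. The median r of the microglial genes with the 5 genes was -0.01 to 0.10. KL was the one ependymal or choroid gene with an r over 0.5 with any of the 5, at 0.68 to 0.84. The part of any of these cell types in the lower levels of the 5 genes was not tested.

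The reference annotation of the guinea pig genome (mCavPor4.1, RefSeq), used here for gene names and order only, held all 5 genes. GPR52 lies within the span of RABGAP1L, which was called higher in F1 females and lower in F1 males, and since the library kit does not mark strand, reads of the pair could be assigned to either where they overlap. RABGAP1L had log2 fold changes of 0.38, -0.13, 0.17 and -0.23 in the F1, F2 and F3 females and the F1 males, against -1.30, -1.02, -2.31 and -1.16 for GPR52, and its deviations were unlike those of GPR52 (r = -0.06). C9orf116 lies between PPP1R26 and MRPS2. MRPS2 was at log2 fold changes of 0.02, -0.02, -0.12 and 0.02, and PPP1R26 at 0.18, -0.18, -0.13 and -0.22. The deviations of C9orf116 had r = 0.48 with those of PPP1R26 and r = 0.29 with those of MRPS2. Of the neighbours of the other genes, DECR1, next to CALB1, was called lower in F1 females (log2 fold change -0.47). HPGD, next to GLRA3, was called higher in F1 females (1.39) and lower in F1 males (-0.56). The r of deviations was -0.08 for DECR1 with CALB1 and 0.16 for HPGD with GLRA3.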

How the data were processed

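mRNA of mPFC punches was sequenced by the authors in 35 guinea pigs. The authors deposited whole-number counts of reads per gene symbol, 1 table per generation and sex, without normalization. TopHat2 and edgeR are named in the submitters' processing notes, and the counter, build and gene filter are not given in the sources used here. The authors also deposited log2 fold changes and mean log2 CPM, a likelihood ratio score with a score column that the files do not explain, and p-values with FDR, all from their own comparison and not used here.

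Symbols were matched ignoring case. The counts were fitted by edgeR 4.0.16 under R 4.3.3 (filterByExpr with a minimum count of 10 and a total of 15, TMM, quasi-likelihood test, Benjamini-Hochberg adjustment over all genes tested). SE was derived from the F statistic. Correlations used log2 TMM CPM with a prior count of 2, as deviations from group means, with 100000 permutations within groups. DESeq2 1.42.0, the likelihood ratio test, RLE and upper-quartile normalization, no filter, a single fit of all tables, a replicate block, within-table fits and the omission of each animal were alternatives. The functions were tested on simulated data.

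The members and the 17 gene lists were chosen with earlier results of these data known. Beside the members, the rule for named genes covers the 5 genes most correlated with each, from each list at most 3 of largest median change, the genes of the tissue check and neighbours in the annotation. Other list genes, named because they were called or correlated, were chosen after their values were seen. Levels of CPM are not corrected for gene length and are not compared between genes. Totals were 12819964 to 31763585 reads per animal, and GLRA3 rests on as few as 4 reads. Results for a few list genes are not reported here.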

Additional observations from a re-analysis of the deposited data

Results flagged for a closer look

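Of 40 groups of animals (5 genes in 8 groups), 4 held 1 animal that lay far from the rest by Dixon's test at the 95% level, which chance alone gives in about 1 of 20 groups. KRT80 was at 12.1 CPM in F1 female sGC animal 4, above the other sGC females of that table, and at 8.61 CPM in F1 male sGC animal 6, above the other 5 sGC males. CALB1 was at 27.8 CPM in F2 female control 1, below the other controls. C9orf116 was at 2.81 CPM in F3 female sGC animal 1, above the other sGC animals. For the 5 genes, 0 of 30 interactions between generations or sexes passed an FDR of 0.05 by edgeR's quasi-likelihood test, which does not show that the effects are alike, and no cause was tested for these values.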

How the results depend on the processing

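The log2 fold change of each of the 5 genes stayed below 0 in each table with the other tools, scalings and filter, the replicate block, the single fit and each animal left out. With a marker score in the fit it did not always do so: GLRA3 and GPR52 were above 0 in F2 females with the upper-layer, the myelin or all 4 scores, as were GPR52 (myelin) and C9orf116 (all 4) in F1 males. Calls over all genes, in both directions, moved with the fit. With the likelihood ratio test, DESeq2 and the block they went from 31 to 534, 471 and 53 in F2 females. In F3 females they went from 153 to 616, 632 and 67 in these fits and 396 in the single fit. In F1 males they went from 1062 to 1410 (likelihood ratio test), 1590 (DESeq2) and 768 (single fit). The number of the 5 genes called lower, 0 in F2 females, was 4 with the likelihood ratio test, 2 with DESeq2 and 1 with a replicate block. In F3 females it was 2, and 5 with the likelihood ratio test, DESeq2 or a single fit of all tables and 0 with the block. In F1 males it was 1, and 3 with the likelihood ratio test and 2 with DESeq2 or the single fit. With 1 animal left out, the number called lower was 0 to 5 in F1 females, the 5 without control 2. In F2 females it was 0 to 3, the 3 without sGC animal 2. In F3 females and F1 males it was 0 to 4, the 4 without control 1 and control 2 respectively. In each table the omission of more than 1 animal, taken singly, gave 0. The median log2 fold change ranged from -1.66 to -1.13 in F1 females and -1.29 to -0.96 in F2 females. In F3 females it ranged from -2.16 to -1.72, and in F1 males from -1.36 to -0.75 (without F1 male control 3). The replicate numbers do not pair animals: over 17 same-numbered pairs r was -0.29 to 0.32, in 1 of 17 checked the same-numbered animal was the closest, so the block is given only as an alternative.

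Of the slopes, the 4 on the upper-layer score became 2 with the replicate block, 1, 0 and 0 within F1, F2 and F3 females, and 0 with all 4 scores in the fit, and the slope of KRT80 turned to -0.0012 within F2 females (quasi-likelihood FDR = 0.998). The 5 on the myelin score became 2 with the block, 2, 1, 0 and 2 within the F1, F2 and F3 females and the F1 males, and 0 with all 4 scores. The count on the striatal score was 1 within F1 females. With 1 animal left out the counts were 3 to 5 (upper-layer), 4 to 5 (myelin), 0 to 2 (deep-layer, without F1 female control 1) and 0 to 1 (striatal, without F2 female sGC animal 3). In alternatives chosen after seeing the data, sGC animals alone gave 0 on the upper-layer and 0 on the myelin score and a median r over the 10 pairs of genes of 0.52, against 5, 5 and 0.88 in controls alone. The cause of these changes was not tested, beyond the fewer animals in the within-table and single-treatment fits. Over all genes the myelin count was also lower within F2 females, at 241 against 1727. All-gene counts are not set beside each block, within-table and single-treatment fit, so the changes are not read as particular to the 5 genes.

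Over all genes, the number called between sGC and control animals ranged from 613 to 3327 around 1864 in F1 females, 0 to 534 around 31 in F2 females, 20 to 632 around 153 in F3 females and 667 to 1613 around 1062 in F1 males. Of the called genes, 55.7% were higher in F1 females, and 42.5% with upper-quartile scaling. Slopes over all genes numbered 1497 (44 to 1659), 921 (6 to 1204), 84 (0 to 238) and 1727 (241 to 1900) for the upper-layer, deep-layer, striatal and myelin scores. The interactions of the 5 genes stayed at 0 called in every alternative, where all-gene counts ranged from 808 to 1906, 0 to 202, 3005 to 3786, 0 to 126, 0 to 26 and 336 to 898 in the 6 pairs of tables. The low read numbers of GLRA3 and GPR52 and the 4 to 6 animals per group limit the precision of these values.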
